A study of Arabidopsis thaliana with 9 samples.

Results

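*KAI2* (AT4G37470), *D14* (AT3G03990), *DLK2* (AT3G24420), *MAX2* (AT2G42620) and *KUF1* (AT1G31350) encode the karrikin receptor, the strigolactone receptor, a further relative of both, the F-box protein that the receptors work with, and an F-box protein that damps karrikin signaling. They were taken by their gene identifiers from the deposited count matrix, where each has a single entry, and make up 5 of the 32830 genes that the matrix names. Their transcript levels are described here in *Arabidopsis thaliana* seeds kept in the dark. No measured value was used to choose them, but they were chosen with earlier results of these data known.

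KAI2 and D14 are α/β-hydrolases that bind a small butenolide molecule, cut or hold it, and then associate with the F-box protein MAX2. MAX2 is the substrate-recognising subunit of an SCF ubiquitin ligase, and the complex marks repressor proteins for degradation: SMAX1 and SMXL2 downstream of KAI2, and SMXL6, SMXL7 and SMXL8 downstream of D14. Karrikins, which are found in smoke, act through KAI2 and promote seed germination, whereas strigolactones act through D14 and are best known for restraining shoot branching. Transcripts of *DLK2* and *KUF1* are widely used as markers of KAI2 signaling, and KUF1 is known to limit the response to karrikin.

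The series holds 9 libraries of total RNA from whole seeds in 3 groups of 3 biological replicates. All seeds were imbibed for 4 days at 4°C in the dark and then left for 24 h in the dark at room temperature. The groups were wild type of the accession Ara-1 on 0 μM KAR2 (Ara-1 control), the line AtKAI2OE on 0 μM KAR2 (AtKAI2OE control) and AtKAI2OE on 0.5 μM KAR2 (AtKAI2OE +KAR2), where KAR2 is a karrikin. The labels describe AtKAI2OE as an overexpressor of *AtKAI2* in Col-0, and the study's methods as *35S::AtKAI2* in the *kai2* mutant *htl-3*. The 35S promoter is active in most tissues, the sources used here do not give which of the independent lines was sequenced, and reads of the transgene and of the native *KAI2* locus were not told apart. Ara-1 with KAR2 and untransformed Col-0 were not analysed here. In every comparison with Ara-1, therefore, the accession and the transgene cannot be told apart, and reads of Ara-1 were mapped to the Col-0 reference.

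Counts assigned to genes ran from 17479888 to 33306518 per library. Entries that name no gene took another 13.4% to 35.1% of a library, and Ara-1 replicate 1 stood apart from the other Ara-1 libraries (35.1% against 13.4% and 13.6%). The 9 markers of seed storage proteins and oil bodies, of which none was at 0, summed to 124522 to 164159 CPM (counts scaled to a common total, as defined below) in AtKAI2OE control, 14782 to 15995 CPM in AtKAI2OE +KAR2 and 359 to 574 CPM in Ara-1 control. Of 4 endosperm markers, *ZOU* was at 0 in all libraries, and the sum of the others ran from 1324 to 3504 CPM, 766 to 941 CPM and 144 to 223 CPM in the same order. That sum was nearly all *EPR1* (means of 2299, 860 and 167 CPM), while *MAN5* (6.09, 5.13 and 6.18 CPM) and *MAN7* (3.45, 4.85 and 6.42 CPM) passed edgeR's test in no comparison. The means of *MAN7* say little, as its libraries ran from 0.0402 to 8.54 CPM in AtKAI2OE control and from 0.0323 to 14.5 CPM in AtKAI2OE +KAR2. The groups thus differed widely in seed-reserve transcripts and in *EPR1*. The part of this in the results below was not tested, and in bulk seeds fewer cells of a type and less RNA per cell cannot be told apart.

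The 3 receptor-family genes are related, so their sequences were compared to see how far reads could be shared between them. In the reference assembly TAIR10.1, *KAI2* lies at chr4:17616659-17618656 on the minus strand with 2 exons, *D14* at chr3:1033579-1035237 on the plus strand with 1 exon, and *DLK2* at chr3:8862813-8865239 on the minus strand with 2 exons. Over their aligned coding bases, *KAI2* was 59.8% identical to *D14* and 57.6% identical to *DLK2*, and *D14* was 55.0% identical to *DLK2*. The longest run of bases shared by any of these pairs was 13, and the authors kept only uniquely mapped reads. The 60 bases around the codon of the catalytic serine are shown because they let the closeness of the 3 genes be judged. Capitals mark bases that differ from *KAI2*, 22 in *D14* and 26 in *DLK2*, the sequences are from RefSeq, and they come from chr4:17618052-17618111, chr3:1034046-1034105 and chr3:8864551-8864610.
KAI2: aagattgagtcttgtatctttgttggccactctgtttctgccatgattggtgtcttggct
D14: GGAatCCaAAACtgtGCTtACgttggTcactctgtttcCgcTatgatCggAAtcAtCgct
DLK2: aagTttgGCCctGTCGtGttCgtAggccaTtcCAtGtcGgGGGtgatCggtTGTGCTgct

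Both F-box genes have a single exon. *MAX2* lies at chr2:17756069-17758468 on the plus strand and *KUF1* at chr1:11221267-11222827 on the minus strand. No annotated gene overlaps any of the 5 genes, but AT3G04000 begins 1 base past the end of *D14* on the same strand. Its mean level was 0.799 CPM in Ara-1 control, 0.411 CPM in AtKAI2OE control and 0.144 CPM in AtKAI2OE +KAR2. These means rest on 78, 28 and 12 counts, and it passed edgeR's test in no comparison. The order of its groups is therefore not settled and cannot be set against that of *D14*.

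The groups gave 3 comparisons, and each shares a group with each of the others, so that they are not independent of each other. After KAR2, 4 of the 5 genes were higher in AtKAI2OE in edgeR's test at an adjusted p under 0.05 (quasi-likelihood, adjusted by Benjamini-Hochberg), namely *KAI2*, *D14*, *DLK2* and *KUF1*, and none was lower. Of all 18291 genes tested in this comparison, 32.5% were higher and 22.9% lower. Against AtKAI2OE control, Ara-1 control was higher for *D14* and *KUF1* and lower for *KAI2*, *DLK2* and *MAX2*, where 40.3% of all genes tested were higher and 33.1% lower. Against AtKAI2OE +KAR2, Ara-1 control was lower for *KAI2* and *DLK2* and passed the test for no other member, where 21.4% of all genes were higher and 25.2% lower. The libraries of the groups compared did not overlap for 4 of the 5 genes after KAR2 (63.2% of all genes tested), for all 5 between Ara-1 control and AtKAI2OE control (74.3%) and for 3 between Ara-1 control and AtKAI2OE +KAR2 (69.0%). With such a large share of all genes called, the number of members called is not particular to them, and their sizes and levels are given below. Levels are CPM, counts divided by library size and scaled by the trimmed mean of M-values (TMM), with the SD over 3 replicates, and differences are log2 fold changes with their standard error (SE).

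**Figure D1:**
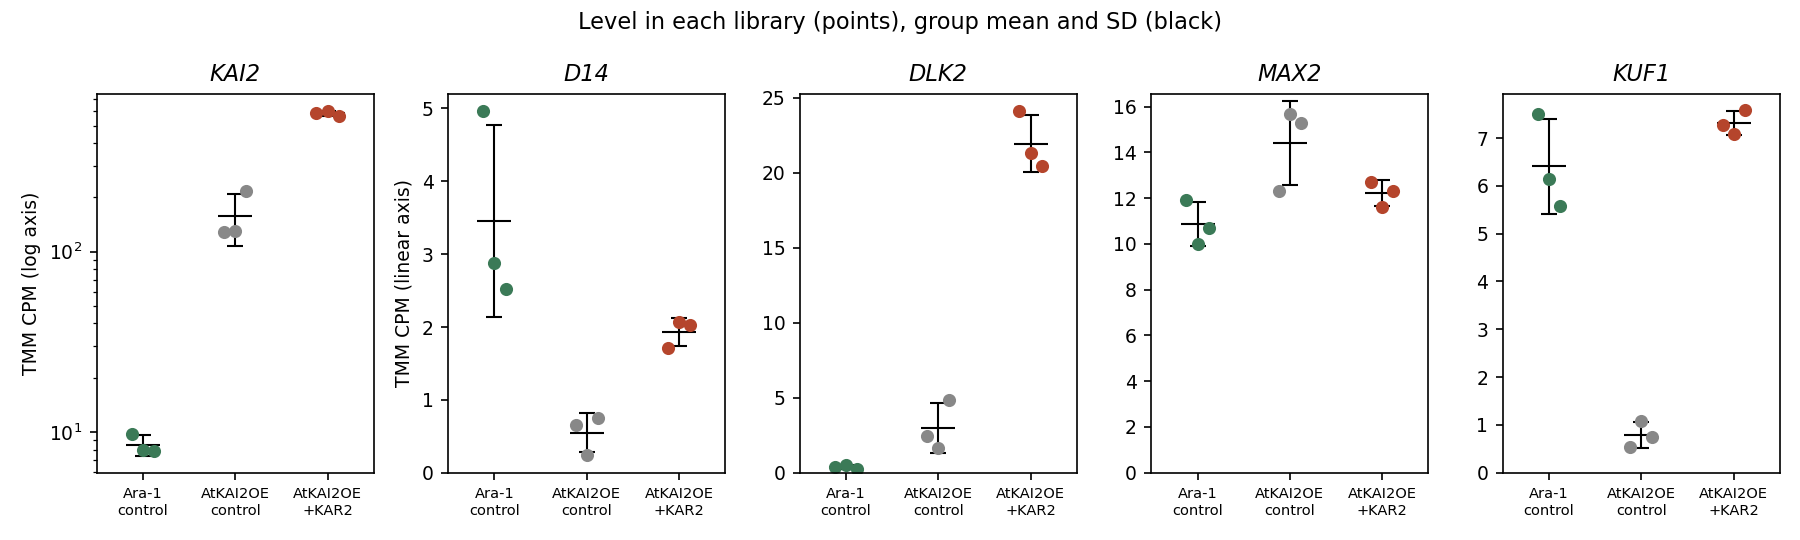
Level of each gene (TMM-scaled CPM, log axis for *KAI2* and linear axes from 0 for the others) in the 9 libraries, with points for libraries and black marks for the group mean and SD. *KAI2* and *DLK2* step up from Ara-1 control to AtKAI2OE control to AtKAI2OE +KAR2, *D14* and *KUF1* are lowest in AtKAI2OE control, and *MAX2* stays between 9.997 and 15.7 CPM.

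*KAI2*, the receptor gene that the line overexpresses, was the check of the labels. It was at 9.77, 7.91 and 7.84 CPM in the 3 libraries of Ara-1 control, at 128.7, 129 and 217 CPM in AtKAI2OE control, and at 584, 604 and 568 CPM in AtKAI2OE +KAR2. All 6 AtKAI2OE libraries were above all Ara-1 libraries, in the direction the labels give, and the 2 AtKAI2OE groups did not overlap either. In Ara-1 control the mean was 18.7-fold lower than in AtKAI2OE control (log2 fold change -4.22, SE 0.24, edgeR adjusted p = 2.65e-07) and 69.1-fold lower than in AtKAI2OE +KAR2 (-6.11, SE 0.26, edgeR adjusted p = 2.96e-07). The transcript thus also rose within the line, by 1.89 on the log2 scale after KAR2 (SE 0.21, 95% interval 1.41 to 2.37, edgeR adjusted p = 6.38e-05). AtKAI2OE control replicate 3 stood well above the other libraries of its group, and without it the rise after KAR2 came to 2.19. The counts do not say whether the reads come from the transgene or the native locus.

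*D14*, the strigolactone receptor gene, ran the other way in the comparison of the genotypes. Its level was 4.97, 2.88 and 2.52 CPM in Ara-1 control, 0.662, 0.241 and 0.750 CPM in AtKAI2OE control, and 1.71, 2.06 and 2.03 CPM in AtKAI2OE +KAR2. These are low levels, and AtKAI2OE control rests on 10, 6 and 16 counts. The 3 groups did not overlap, with Ara-1 control highest and AtKAI2OE control lowest. Ara-1 control was 6.31-fold higher than AtKAI2OE control (log2 fold change 2.66, SE 0.44, 95% interval 1.66 to 3.65, edgeR adjusted p = 0.000404), or by 2.07 on the log2 scale with limma on normalized counts plus 10. KAR2 raised the level in AtKAI2OE by 1.83 (SE 0.44, 95% interval 0.84 to 2.82, edgeR adjusted p = 0.00603). Ara-1 control and AtKAI2OE +KAR2 differed by 0.83 (SE 0.39, 95% interval -0.06 to 1.71), which did not pass the test (edgeR adjusted p = 0.116). That call depended on the libraries in the fit, with an adjusted p of 0.0443 when edgeR was given only the 6 libraries of these groups and of 0.0441 without AtKAI2OE control replicate 2.

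*DLK2*, the remaining member of the receptor family and a marker of KAI2 signaling, followed *KAI2*. It was at 0.395, 0.543 and 0.283 CPM in Ara-1 control, 2.45, 1.65 and 4.87 CPM in AtKAI2OE control, and 24.1, 21.3 and 20.4 CPM in AtKAI2OE +KAR2. The groups did not overlap, and Ara-1 control rests on 7, 20 and 10 counts. Ara-1 control was 7.22-fold lower than AtKAI2OE control (log2 fold change -2.85, SE 0.42, 95% interval -3.81 to -1.90, edgeR adjusted p = 0.00019). Against AtKAI2OE +KAR2 it was 52.9-fold lower (-5.73, SE 0.43, edgeR adjusted p = 7.39e-06). Both differences were smaller, at -2.01 and -4.77, with limma on normalized counts to which 10 had been added. Of the 18291 genes tested, 273 had a larger decrease in Ara-1 control against AtKAI2OE +KAR2 than *DLK2*, and 239 a larger decrease than *KAI2*. Within AtKAI2OE the rise after KAR2 was 2.87 on the log2 scale (SE 0.36, 95% interval 2.07 to 3.67, edgeR adjusted p = 0.000113). AtKAI2OE control replicate 3, the library of its group with the most *KAI2*, was also the one with the most *DLK2*, and without it the rise came to 3.45. That library also had the most *D14* of its group (0.750 CPM), and 1 library cannot show that *DLK2* follows *KAI2* within the group.

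*MAX2*, the F-box gene that both the karrikin and the strigolactone pathways depend on, varied least of the 5 genes. Its level was 11.9, 9.997 and 10.7 CPM in Ara-1 control, 12.3, 15.7 and 15.3 CPM in AtKAI2OE control, and 12.7, 11.6 and 12.3 CPM in AtKAI2OE +KAR2. The AtKAI2OE groups overlapped, and so did Ara-1 control and AtKAI2OE +KAR2. After KAR2 the log2 fold change was -0.24 (SE 0.13, 95% interval -0.54 to 0.06, edgeR adjusted p = 0.16), an interval that reaches from 0.686-fold to 1.04-fold, and its sign turned to 0.13 when counts were scaled by library size only. Ara-1 control was lower than AtKAI2OE control by 0.41 (fold change 0.751, SE 0.14, edgeR adjusted p = 0.0195), but by 0.089 with scaling by library size only (edgeR adjusted p = 0.61), so that *MAX2* passed the test under both scalings in no comparison. Scaling by library size only moved the median log2 fold change of all genes by 0.37 in the comparison with KAR2 and by 0.33 between Ara-1 control and AtKAI2OE control. Differences of the size seen for *MAX2* are smaller than or close to that shift, whereas those called for the other members are several times larger.

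*KUF1*, the F-box gene known as a brake on karrikin responses, was low in AtKAI2OE control alone. It was at 7.51, 6.14 and 5.58 CPM in Ara-1 control, 0.529, 1.08 and 0.750 CPM in AtKAI2OE control, and 7.26, 7.08 and 7.58 CPM in AtKAI2OE +KAR2. The libraries of AtKAI2OE control, with 8, 27 and 16 counts, were all below every other library, and Ara-1 control overlapped with AtKAI2OE +KAR2. KAR2 raised *KUF1* 9.001-fold in AtKAI2OE (log2 fold change 3.17, SE 0.26, 95% interval 2.60 to 3.74, edgeR adjusted p = 8.56e-06). Ara-1 control was 7.87-fold higher than AtKAI2OE control without any KAR2 (2.98, SE 0.26, edgeR adjusted p = 4.09e-06). Between Ara-1 control and AtKAI2OE +KAR2 the log2 fold change was -0.19 (SE 0.22, edgeR adjusted p = 0.497), and its 95% interval allows from 0.623-fold to 1.23-fold.

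**Figure D2:**
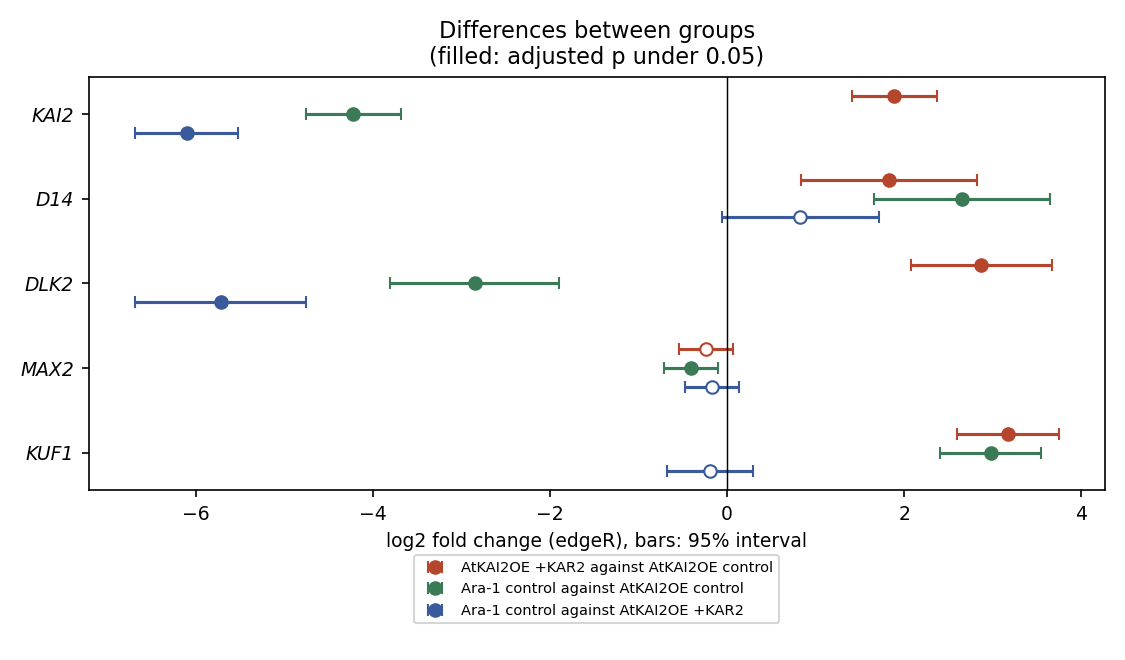
Log2 fold change of each gene (x axis) in the 3 comparisons, with bars for the 95% interval and filled points for an edgeR adjusted p under 0.05. *DLK2* and *KUF1* both lie to the right of 0 after KAR2 (2.87 and 3.17), but lie on opposite sides when Ara-1 control is set against AtKAI2OE control (-2.85 and 2.98).

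*DLK2* and *KUF1*, both of them RT-qPCR markers of the pathway in the study, were therefore raised by KAR2 in AtKAI2OE, a direction that was known, but differed in opposite directions between Ara-1 control and AtKAI2OE control. Their ratio within a library does not depend on the scaling of libraries. Counted per kb of annotated exon, the ratio of *DLK2* to *KUF1* was 0.0557, 0.0936 and 0.0537 in Ara-1 control, 4.89, 1.61 and 6.87 in AtKAI2OE control, and 3.51, 3.18 and 2.85 in AtKAI2OE +KAR2. It was lower in Ara-1 control than in any AtKAI2OE library, and the 2 AtKAI2OE groups overlapped. *KUF1* and *D14* had in common that their mean was lowest in AtKAI2OE control, and *KAI2* and *DLK2* that it was lowest in Ara-1 control.

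*DLK2* was also set against the receptor transcript itself. The ratio of *DLK2* to *KAI2* per kb was 0.0409, 0.0695 and 0.0365 in Ara-1 control, 0.0192, 0.0129 and 0.0227 in AtKAI2OE control, and 0.0417, 0.0356 and 0.0364 in AtKAI2OE +KAR2. The libraries of AtKAI2OE control were below all others, and Ara-1 control overlapped with AtKAI2OE +KAR2. These ratios are given as a description, since an exact permutation test of 3 libraries against 3 cannot go below p = 0.1. By the same exact test on single genes (two-sided), p was 0.1, the smallest it can give, in every comparison of *KAI2*, *D14* and *DLK2*.

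*KAI2* was also set against *D14* and *MAX2* within each library. *KAI2* over *D14* per kb was 2.19, 3.05 and 3.46 in Ara-1 control, 216, 597 and 322 in AtKAI2OE control, and 380, 325 and 311 in AtKAI2OE +KAR2. *KAI2* over *MAX2* was 1.32, 1.27 and 1.18 in Ara-1 control, 16.8, 13.3 and 22.8 in AtKAI2OE control, and 73.9, 83.6 and 74.2 in AtKAI2OE +KAR2. Both ratios were lower in every Ara-1 library than in any AtKAI2OE library. The AtKAI2OE groups overlapped in the ratio of *KAI2* to *D14*, but not in that of *KAI2* to *MAX2*. Part of the reads of *KAI2* may come from a transgene of unknown transcribed length, so levels per kb of *KAI2* in AtKAI2OE hold only for the annotated length.

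**Figure D3:**
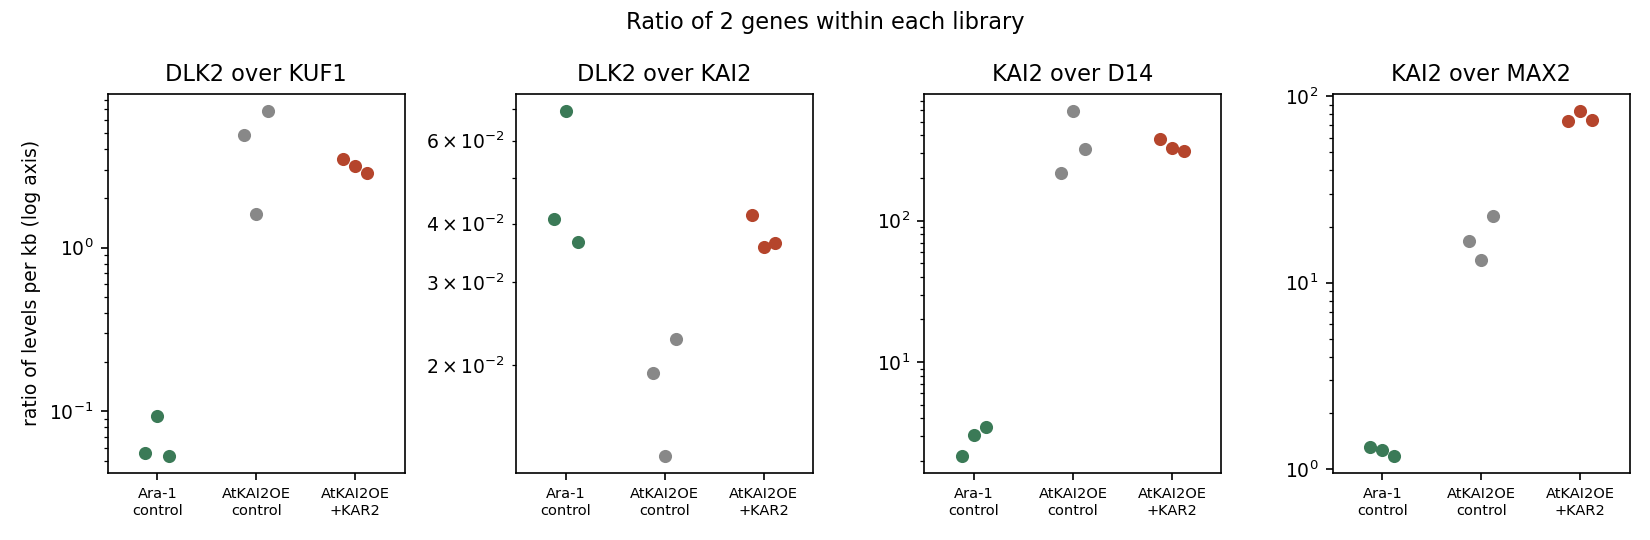
Ratio of 2 genes within each library (levels per kb of exon, log axes), with a point for each of the 3 libraries of a group. *DLK2* over *KUF1* is below 0.1 in all Ara-1 control libraries and above 1 in all AtKAI2OE libraries, while *DLK2* over *KAI2* is lowest in AtKAI2OE control.

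Ordered by their level per kb of exon, *KAI2* came first in each group, with means of 5.70, 106 and 392 CPM per kb in Ara-1 control, AtKAI2OE control and AtKAI2OE +KAR2. In Ara-1 control it was followed by *MAX2* (4.53 ± 0.405 CPM per kb, SD, n = 3), *KUF1* (4.11 ± 0.637), *D14* (2.08 ± 0.797) and *DLK2* (0.276 ± 0.0884). There *MAX2* and *KUF1* lay within their spread of each other. In AtKAI2OE control *MAX2* (6.01 ± 0.765 CPM per kb) came before *DLK2* (2.03 ± 1.14), *KUF1* (0.505 ± 0.179) and *D14* (0.332 ± 0.164), and the last 2 lay within their spread. In AtKAI2OE +KAR2 *DLK2* moved up to the second place (14.9 ± 1.30 CPM per kb), ahead of *MAX2* (5.09 ± 0.229), *KUF1* (4.68 ± 0.161) and *D14* (1.17 ± 0.117). *DLK2* was thus the last of the 5 in Ara-1 control and the second in AtKAI2OE +KAR2.

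The promoters of the 3 genes that KAR2 raised besides the overexpressed gene are shown so that their sequence can be set beside their levels. They are the 250 bases before the annotated start of *D14* (chr3:1033329-1033578), *DLK2* (chr3:8865240-8865489) and *KUF1* (chr1:11222828-11223077), read 5′ to 3′ on the strand of the gene from RefSeq's TAIR10.1, with ACGT in capitals. ACGT is the core of sites bound by bZIP factors such as HY5.
D14: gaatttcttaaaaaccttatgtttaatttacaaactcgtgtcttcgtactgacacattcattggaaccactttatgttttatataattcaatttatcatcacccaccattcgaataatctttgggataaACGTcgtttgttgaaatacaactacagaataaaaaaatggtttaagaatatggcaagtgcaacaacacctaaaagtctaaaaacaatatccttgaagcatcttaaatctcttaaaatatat
DLK2: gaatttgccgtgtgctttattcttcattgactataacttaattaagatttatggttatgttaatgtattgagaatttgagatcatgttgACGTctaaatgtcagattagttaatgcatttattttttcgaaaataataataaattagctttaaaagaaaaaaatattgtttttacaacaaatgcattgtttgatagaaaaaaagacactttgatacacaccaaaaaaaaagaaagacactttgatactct
KUF1: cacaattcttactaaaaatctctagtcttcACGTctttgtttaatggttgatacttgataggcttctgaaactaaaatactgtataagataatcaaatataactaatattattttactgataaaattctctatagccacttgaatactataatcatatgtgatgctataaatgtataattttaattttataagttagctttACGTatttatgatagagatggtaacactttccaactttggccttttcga
ACGT occurs once in *D14*, once in *DLK2* and at 2 places in *KUF1*, and not in the windows of *KAI2* and *MAX2*. It was searched for after the sequences had been seen, and 44.1% of all 27443 promoters of this length hold it, on either strand since it reads the same on both. The motifs CACGTG (6.49% of all promoters), CACATG (11.1%) and ATAACAA (11.6%), the last known from SMXL6 binding, were searched on both strands and are in none of the 5 windows. CACGTG contains ACGT, so that these searches overlap. A match of letters is a description and no evidence of binding.

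The genes with the most similar profile were named for each member by the smallest root mean square difference of centred log2 CPM over the 9 libraries. *KUF1* was followed most closely by *HB5* (AT5G65310), a homeodomain-leucine zipper gene, with a difference of 0.149, then by AT4G02940 (0.153) and the ethylene receptor gene *ERS1* (0.192). *HB5* was at a mean of 56.7 CPM in Ara-1 control, 8.12 CPM in AtKAI2OE control and 67.4 CPM in AtKAI2OE +KAR2, and *ERS1* at 29.8, 3.90 and 37.0 CPM. Both have the low level in AtKAI2OE control that *KUF1* has. For *D14* the nearest were *UXS4* (0.248), which encodes a UDP-xylose synthase, AT2G46620 (0.268) and *HCF244* (0.274), a gene for photosystem II assembly. *UXS4* was at 29.7, 4.84 and 17.6 CPM in the same order of groups.

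*MAX2* had the closest neighbors of all members, as its own profile was nearly flat: the bZIP gene *BZIP25* (0.0616), the jasmonate receptor gene *COI1* (0.0728) and the blue light receptor gene *CRY1* (0.0859). *COI1*, itself an F-box gene, was at means of 23.8, 30.1 and 27.3 CPM. The nearest to *DLK2* were AT5G26270 (0.428), AT4G01930 (0.646) and AT1G65150 (0.660), and the nearest to *KAI2* were AT5G59680 (0.372), AT2G10931 (0.409) and AT5G45095 (0.413). Of these 6 genes, AT5G26270, AT5G59680 and AT2G10931 had no count in Ara-1 control, where *KAI2* and *DLK2* did. In AtKAI2OE +KAR2 the 3 nearest to *KAI2* had means of 7.28, 3.02 and 4.10 CPM, where *KAI2* had 585 CPM. The difference for genes without counts in a group depends on the prior count of 2, so these matches are in shape only and uncertain. Among the members themselves, the profiles of *KAI2* and *DLK2* (0.724) and of *D14* and *KUF1* (0.807) were nearest to each other, and those of *KAI2* and *D14* (3.22) farthest apart.

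Around the members, a list of 30 other genes of KAI2 and D14 signaling and of strigolactone metabolism was followed, of which 24 passed the filter on low counts. *SMXL8*, *BRC1* and *IAA6* had no count in any library, and *D27*, *MAX4* and *MAX1*, 3 genes of strigolactone synthesis, had at most 11, 6 and 14 counts in a library. After KAR2, 6 of the 24 were higher, 5 lower and 13 did not pass the test, so that 45.8% were called where 55.4% of all genes were. Their median log2 fold change was 0.10 beside 0.12 for all genes. In Ara-1 control against AtKAI2OE control, 5 were higher and 10 lower (62.5% called, 73.4% of all genes), with a median of -0.35 beside 0.19. In Ara-1 control against AtKAI2OE +KAR2, 3 were higher and 10 lower (54.2% called, 46.5% of all genes), with a median of -0.30 beside 0.02. With scaling by library size only, 9 were higher and 2 lower after KAR2, and 8 were higher and 8 lower in Ara-1 control against AtKAI2OE control.

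Both repressor genes downstream of KAI2 were lower in Ara-1 control than in either AtKAI2OE group, and after KAR2 *SMXL2* rose while *SMAX1* did not pass the test. *SMAX1*, the main repressor of germination in this pathway, was at 83.98 ± 18.6 CPM in AtKAI2OE control, 68.4 ± 2.70 CPM in AtKAI2OE +KAR2 and 20.4 ± 3.95 CPM in Ara-1 control. Its log2 fold change was -0.30 after KAR2 (SE 0.19, edgeR adjusted p = 0.203, with overlapping libraries) and -2.05 in Ara-1 control against AtKAI2OE control (SE 0.19, edgeR adjusted p = 8.25e-06). *SMXL2*, its partly redundant relative, rose by 0.78 after KAR2 (SE 0.13, edgeR adjusted p = 0.000847), from 16.9 to 29.1 CPM, and was at 6.57 CPM in Ara-1 control. Of the repressors downstream of D14, *SMXL6* (log2 fold change -1.44) and *SMXL7* (-0.51) were lower in Ara-1 control than in AtKAI2OE control, and neither passed the test after KAR2. *SMXL3*, a relative that is not a target of either receptor, was higher after KAR2 (0.93) and in Ara-1 control (1.37) than in AtKAI2OE control.

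Of 4 partners of MAX2 in the SCF complex, *ASK2* and *CUL1* were called in every comparison and *ASK1* and *RBX1* in none. That is 50% each time. Of all genes, 55.4% were called after KAR2, 73.4% in Ara-1 control against AtKAI2OE control and 46.5% against AtKAI2OE +KAR2. The number called is thus not particular to these partners. *ASK2*, an adaptor of SCF complexes, was at 201 ± 32.0 CPM in AtKAI2OE control, 105 ± 7.38 CPM after KAR2 and 48.4 ± 4.63 CPM in Ara-1 control, and all 3 differences passed edgeR's test. *CUL1*, the cullin scaffold, was lower by the same test after KAR2 (-0.43) and in Ara-1 control (-1.16) than in AtKAI2OE control. *ASK1*, another adaptor gene, and the RING subunit gene *RBX1* had log2 fold changes of -0.13 and 0.08 after KAR2, closer to 0 than that of *MAX2*. Of the 5 corepressor genes of the TOPLESS family, none was called after KAR2 (55.4% of all genes were), with log2 fold changes between -0.21 and 0.24. In Ara-1 control, *TPL* was lower (-0.42) and *TPR3* higher (0.60) than in AtKAI2OE control, and *TPR4* lower (-0.64) and *TPR3* higher (0.48) than in AtKAI2OE +KAR2. For *TPL* the libraries of the groups compared overlapped. *PAPP5*, a phosphatase gene linked to MAX2, was lower after KAR2 (-0.32) and in Ara-1 control (-0.88) than in AtKAI2OE control. As for *MAX2*, some of these differences are close to the shift of the median with scaling by library size only. That shift was 0.37 after KAR2, beside *CUL1* and *PAPP5*, and 0.33 between Ara-1 control and AtKAI2OE control, beside *TPL*. Those calls may therefore depend on the scaling.

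Of 5 output genes on the list, *BBX20*, *HY5* and *IAA1* could be tested. After KAR2, *BBX20* and *HY5* were higher, *HY5* was also higher in Ara-1 control than in AtKAI2OE control, *BBX20* was lower in Ara-1 control than in AtKAI2OE +KAR2, and the auxin-response gene *IAA1* passed the test in no comparison. *BBX20*, a B-box gene and another RT-qPCR marker of the study, was at 6.61, 5.84 and 6.68 CPM in Ara-1 control, 4.17, 5.30 and 5.30 CPM in AtKAI2OE control and 19.98, 16.3 and 19.2 CPM in AtKAI2OE +KAR2. Every Ara-1 control library was above those of AtKAI2OE control, but the difference did not pass the test (log2 fold change 0.37, SE 0.15, 95% interval 0.02 to 0.71, edgeR adjusted p = 0.0529). Ara-1 control was below AtKAI2OE +KAR2 (-1.54, SE 0.15, edgeR adjusted p = 3.94e-05). The 3 markers therefore placed Ara-1 seeds differently: by *DLK2* below both AtKAI2OE groups, by *BBX20* between them but closer to AtKAI2OE control, and by *KUF1* near AtKAI2OE +KAR2. *BES1*, a brassinosteroid transcription factor whose protein MAX2 is known to act on, was at 3.94, 17.1 and 27.7 CPM in AtKAI2OE control, AtKAI2OE +KAR2 and Ara-1 control. *HY5*, a light-response bZIP gene, had 5 counts in AtKAI2OE control, all in replicate 2, against 65 in AtKAI2OE +KAR2 and 115 in Ara-1 control.

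In strigolactone metabolism, *MAX3*, a carotenoid cleavage dioxygenase gene of synthesis, had 36 counts in AtKAI2OE control, 5 in AtKAI2OE +KAR2 and none in Ara-1 control, where it was at least 17.6-fold lower than in AtKAI2OE control against 3 counts over the group. *LBO*, a later enzyme of the route, had none in AtKAI2OE control, 44 in AtKAI2OE +KAR2 (at least 10.7-fold higher) and 113 in Ara-1 control (at least 25.7-fold higher). *CXE15*, a carboxylesterase gene that breaks strigolactones down, fell by 1.30 on the log2 scale after KAR2 (SE 0.27, edgeR adjusted p = 0.00289) and was lower still in Ara-1 control (-2.21 against AtKAI2OE control). The genes of synthesis and breakdown measured here thus did not move in a single direction.

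**Figure D4:**
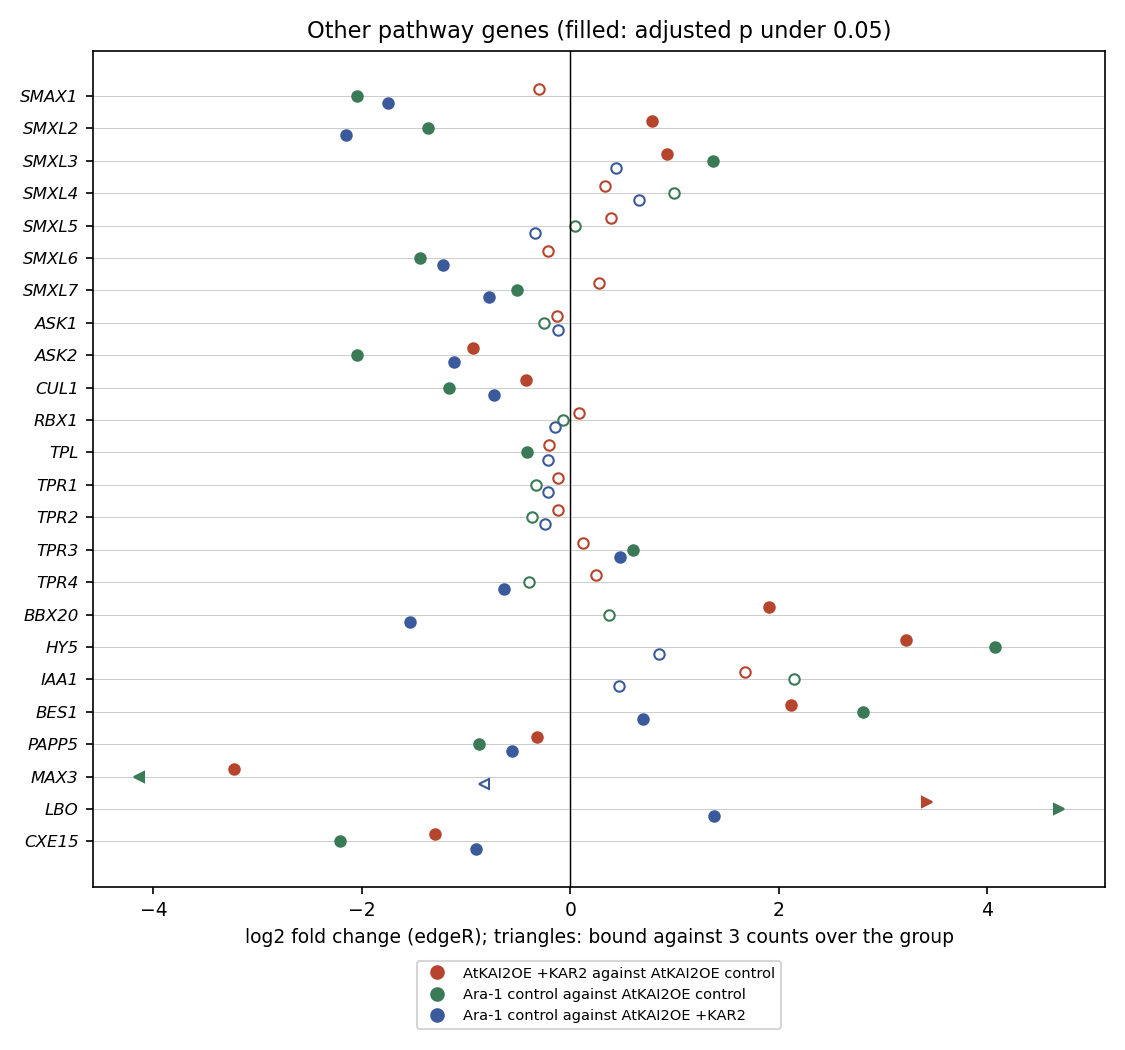
Log2 fold change of the 24 tested genes of the pathway list (x axis) in the 3 comparisons, with filled points for an edgeR adjusted p under 0.05 and triangles for bounds against 3 counts over a group without counts. *SMAX1*, *ASK2* and *CXE15* are lower in Ara-1 control (-2.05, -2.05 and -2.21 against AtKAI2OE control), *BES1* is higher (2.81), and *BBX20* is raised by KAR2 (1.90).

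As a check of the scale, the RT-qPCR reference gene of the study, *ACT8*, was at 288 ± 29.8 CPM in Ara-1 control, 225 ± 59.1 CPM in AtKAI2OE control and 221 ± 13.6 CPM in AtKAI2OE +KAR2. It passed edgeR's test in no comparison, with log2 fold changes of -0.02 after KAR2 (adjusted p = 0.93) and of 0.36 in Ara-1 control against AtKAI2OE control (adjusted p = 0.119). The largest was 0.38 in Ara-1 control against AtKAI2OE +KAR2 (edgeR adjusted p = 0.134), where the libraries did not overlap. Set against *ACT8*, the log2 difference of Ara-1 control and AtKAI2OE +KAR2 was 0.40 for *D14* and -0.58 for *KUF1*, instead of 0.83 and -0.19.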

How the data were processed

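Single-end reads were cleaned by the authors (htStream) and aligned to TAIR10 by HISAT2 2.1.0. The authors then kept unique alignments with SAMtools 1.10, assembled transcripts on Araport11 with StringTie 2.1.3 (versions from the submitters' processing notes), and extracted the deposited counts per gene, which are whole numbers estimated from transcript coverage. The strand counted is not stated in those sources, so reads from a gene and from an antisense partner cannot be told apart. The authors also deposited a normalized signal per library. It equals the count over a DESeq2 size factor (DESeq2 1.18.1 in the same notes) within 0.1% for 100% of values, and served only the alternatives with limma.

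Of 37054 entries in the count matrix, 35949 name one of 32830 genes. Entries of a gene were summed, and 1105 entries with no gene were left out of library sizes and tests (13.4% to 35.1% of counts). Counts of all 9 libraries were fitted together in R 4.3.3 with edgeR 4.0.16 (TMM, filterByExpr with a minimum count of 10 and a minimum total of 15, quasi-likelihood test, Benjamini-Hochberg adjustment over 18291 genes, threshold 0.05). The SE was obtained by dividing the log2 fold change by the root of F. For a gene with no count in a group, the fold is a bound computed with 3 counts for that group, which covers counting error only. Between replicates, chi-square per degree of freedom was 11.2 to 124, so no library was a copy of another. Neither the labels nor the methods say how biological replicates were kept apart or what their numbers mean. The p-values therefore set each difference against the spread between these samples, and what that spread covers is not known. The test was tried on simulated counts.

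The members, the pathway list and the tests were chosen with earlier results of these data known. Genes named are the members, genes of the pathway list past the test (others with their values), the 3 nearest profiles of each member (edgeR log2 CPM, prior count 2), *ACT8* and the neighbor of *D14*. Positions and sequences are from RefSeq's TAIR10.1, an update of the TAIR10 that the authors mapped to, and the deposited files carry no coordinates to compare with it. Coding sequences were aligned with Biopython 1.88. Alternatives were RLE scaling, library size only, DESeq2 1.42.0, limma 3.58.1 on the normalized signal with 1 or 10 added, no filter, a minimum of 10 counts in each library, the 6 libraries of a comparison only, the entry named by the identifier only, unnamed entries kept, organelle genes left out, the ratio to *ACT8*, the replicate number as a block, and each replicate left out.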

Additional observations from a re-analysis of the deposited data

How the results depend on the processing

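Of 306 tested alternatives for single members, 297 kept direction and call, and for *KAI2*, *DLK2* and *KUF1* after KAR2 and for *D14* and *KUF1* in Ara-1 control against AtKAI2OE control every tested alternative did, with ranges (the untested ratio to *ACT8* included) of 1.76 to 2.27, 2.56 to 3.45, 2.68 to 3.53, 2.07 to 2.99 and 2.59 to 3.29 on the log2 scale. *D14* after KAR2 ranged from 1.30 to 2.22, and *DLK2* from -3.17 to -2.01 in Ara-1 control against AtKAI2OE control and from -6.17 to -4.77 against AtKAI2OE +KAR2. Limma with 10 added, which pulls low values together, gave 2.07 for *D14* and -2.01 for *DLK2* in Ara-1 control against AtKAI2OE control. *MAX2* was the least stable member. After KAR2 its log2 fold change was -0.33 with RLE scaling (edgeR adjusted p = 0.0493) and -0.33 by DESeq2 (adjusted p = 0.0465), both past the threshold, and 0.13 with library size only. With each replicate left out it ran from -0.34 to -0.17, and passed without AtKAI2OE control replicate 1 (edgeR adjusted p = 0.0363). In Ara-1 control against AtKAI2OE control *MAX2* was at -0.089 with library size only, and from -0.52 to -0.35 with each replicate left out, where it missed the threshold without Ara-1 control replicate 2 (edgeR adjusted p = 0.0768) or without AtKAI2OE control replicate 3 (edgeR adjusted p = 0.0522). *D14* in Ara-1 control against AtKAI2OE +KAR2 was 0.78 in the fit of 6 libraries and from 0.48 to 1.01 with each replicate left out. Its call changed too, as it passed in that fit (edgeR adjusted p = 0.0443) and without AtKAI2OE control replicate 2 (edgeR adjusted p = 0.0441). The ratio to *ACT8* gave -4.57 for *KAI2* and -0.79 for *MAX2* in Ara-1 control against AtKAI2OE control, and -6.49 for *KAI2*, 0.40 for *D14*, -6.17 for *DLK2*, -0.55 for *MAX2* and -0.58 for *KUF1* against AtKAI2OE +KAR2. After KAR2, scaling by library size only called 7906 genes higher and 2322 lower, instead of 5948 and 4187. In the pathway list, the genes lower after KAR2 were 2 with library size only, 3 with no filter and 2 to 6 with each replicate left out (5 as reported), those higher in Ara-1 control against AtKAI2OE control 8 with library size only, and those higher against AtKAI2OE +KAR2 1 with library size only and 1 to 3 with each replicate left out (3 as reported). The cause of these changes was not tested. Requiring 10 counts in every library removed *D14*, *DLK2* and *KUF1*, whose lowest libraries hold 6, 7 and 8 counts.

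With the replicate number as a block, no member changed its call (*KAI2* 1.91, *D14* 1.89, *DLK2* 2.93, *MAX2* -0.24 and *KUF1* 3.18 after KAR2), and 5650 genes were higher and 3807 lower. Deviations of same-numbered libraries from their group means correlated across genes from -0.09 to 0.27 and not over 0.1 in every pair. Not every library correlated best with its own number, though the highest value, 0.27, was between replicates 2 of Ara-1 control and AtKAI2OE control. These correlations cannot settle whether same-numbered libraries share more than a number.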

Other observations

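AtKAI2OE control was the most variable group for the receptor family. The coefficient of variation over its 3 libraries was 32.0% for *KAI2*, 49.4% for *D14* and 56.2% for *DLK2*, against 3.11%, 10.1% and 8.72% in AtKAI2OE +KAR2. In Ara-1 control it was 12.9%, 38.3% and 32.1%. For *MAX2* and *KUF1* it was 12.7% and 35.5% in AtKAI2OE control, against 4.50% and 3.44% in AtKAI2OE +KAR2. The spread was not particular to the members. For *ACT8* it was 26.2% against 6.14%, though *SMXL7* went the other way (5.55% against 12.8%). Over all genes tested, chi-square per degree of freedom between replicates was 50.4 to 117 in AtKAI2OE control. It was 11.2 to 19.2 in AtKAI2OE +KAR2 and 26.3 to 124 in Ara-1 control. Counts are also lower in AtKAI2OE control for *D14*, *DLK2* and *KUF1*, and 3 libraries per group are too few to test a difference in spread.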
